A study of Mus musculus with 14 samples.

Results

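The genes described here are 41 mouse genes of the cornified envelope and of squamous differentiation, the program by which stratified epithelia such as epidermis build their outer layer. They were chosen by role, from a list drawn up with earlier results of these arrays known. Of the 41, 40 had a probe set assigned to them alone and 36 had one above a signal of 20 on at least 1 array, against 17149 genes tested in all. *Dsg3* was not analysed here. *Flg*, *Sprr1b*, *Dsg1a* and *Alox12b* stayed at or below a signal of 20 on all 14 arrays and were not tested. For each gene the probe set with the highest mean over the 14 arrays was used. Of the values, that mean picked the probe sets, and the level in Sca-1Hi had put forward *Dapl1*, *Nccrp1*, *Lipm*, *Padi4* and *Ivl*.

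The study compared 4 cell populations of normal mice, labelled C57BL/6 for UGE and C57BL for the adults, on Affymetrix MOE430 2.0 arrays, whose signals are given here in the linear PLIER units of the authors. The UGE arrays (n = 3) hold the epithelium of the urogenital sinus, the fetal rudiment of the prostate, at embryonic day 16, for which the methods describe no sort. The Sca-1Hi (n = 3), Sca-1Lo (n = 4) and Sca-1Neg (n = 4) arrays hold cells of the proximal ducts of adult male prostates, sorted by the amount of the surface antigen Sca-1. The labels give the adult age as 6 to 8 weeks, and the methods as 6 weeks. UGE and Sca-1Hi are the populations enriched in fetal and adult stem cells, Sca-1Lo that enriched in transit-amplifying cells, and Sca-1Neg the most mature one. *Ly6a*, the gene of Sca-1, was not analysed here. The sort is described by Sca-1 alone, so each fraction can hold other cell types, and markers of muscle, blood and vessel cells were measured in them. No source says whether the replicates came from separate animals, so a p-value measures the spread between these preparations, which may be technical. In such sorted or dissected tissue a lower share of a cell type and less RNA per cell cannot be told apart.

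In stratified epithelia, cells that leave the basal layer assemble a protein shell under the plasma membrane. Envoplakin and periplakin line the membrane first, transglutaminases cross-link involucrin, loricrin and small proline-rich proteins onto them, and lipids are attached outside. Desmosomes, the spot junctions between these cells, switch their cadherins and plakophilins as the cells rise, and keratins 1 and 10 replace the keratins of the basal layer. The prostate is a glandular epithelium of basal and luminal cells, and it does not normally cornify.

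The summed signal of 5 basal markers (*Krt5*, *Krt14*, *Krt15*, *Trp63*, *Itga6*) ranged over 21522 to 28004 in UGE, 17357 to 26251 in Sca-1Hi, 8576 to 26833 in Sca-1Lo and 1663 to 7862 in Sca-1Neg, the highest Sca-1Neg array being replicate 3. The sum of 7 luminal markers was 13830 to 19262 in UGE, 39149 to 58112 in Sca-1Hi, 46483 to 73977 in Sca-1Lo and 33457 to 81040 in Sca-1Neg, again highest in replicate 3 of Sca-1Neg. In UGE that sum came from the keratins *Krt8* (mean 9511) and *Krt18* (6392), while the secretory genes *Pbsn*, *Msmb*, *Tgm4*, *Spink1* and *Azgp1* had means of 6.86 to 19.7 in UGE, against 1355 to 13259.5 in the adult populations. Markers of other cells differed as well. The sum of 5 endothelial markers was 117 to 494 in UGE, 4640 to 8588 in Sca-1Hi, 2735 to 6432 in Sca-1Lo and 317 to 636 in Sca-1Neg. That of 8 leukocyte markers was 445 to 566 in UGE, 539 to 2094 in Sca-1Hi, 2014 to 9511 in Sca-1Lo and 5932 to 22198 in Sca-1Neg. In Sca-1Hi and Sca-1Lo most of it came from *Cd52* (means 898 and 3969, against 32.8 in UGE). By mean log2 signal 6 of the 8 were higher in UGE than in Sca-1Hi and 2 were lower. Smooth muscle markers, 5 in number, summed to 977 to 2741 in UGE, 7618 to 22159.5 in Sca-1Hi, 9719 to 21379.5 in Sca-1Lo and 24131 to 69339.5 in Sca-1Neg. Urothelial markers, also 5, summed to 7436 to 10605 in UGE, 3408 to 5166 in Sca-1Hi, 2674 to 5573 in Sca-1Lo and 1270 to 5377 in Sca-1Neg. Most of the adult sums came from *Upk1b*, with means of 1912 to 3718. *Upk3a* averaged 1288 in UGE and 12.9 to 34.3 in the adult populations, and *Upk3b* 550 and 4.12 to 16.9. Seminal vesicle markers, 5 in number, summed to 31.7 to 388 in UGE, 15552.5 to 28269 in Sca-1Hi, 25798 to 41919.7 in Sca-1Lo and 36428 to 43528 in Sca-1Neg. The sum of 4 proliferation markers was 7673 to 10419.6 in UGE, 349 to 864 in Sca-1Hi, 350.5 to 857 in Sca-1Lo and 631 to 998 in Sca-1Neg. That of 5 fibroblast markers overlapped between all populations, at 5461 to 15682 in UGE, 4867 to 41191 in Sca-1Hi, 7415 to 49012 in Sca-1Lo and 9891 to 33792 in Sca-1Neg. Markers of epidermis and hair, 6 in number, of which *Krt1*, *Krt10* and *Lor* are members, summed to 5091 to 8319 in UGE, 1281 to 3453 in Sca-1Hi, 901 to 1859 in Sca-1Lo and 474 to 1039.6 in Sca-1Neg, and the epidermal keratin *Krt2* averaged 18.3 in UGE, 15.3 in Sca-1Hi, 15.4 in Sca-1Lo and 9.94 in Sca-1Neg. The log2 ratio of 3' to 5' signal of *Gapdh*, which rises as RNA degrades, was 1.83 to 2.38 in UGE, 3.07 to 3.48 in Sca-1Hi, 1.98 to 3.22 in Sca-1Lo and 1.66 to 2.75 in Sca-1Neg. The same ratio of *Actb* was 1.54 to 2.09 in UGE, 1.59 to 2.77 in Sca-1Hi, 1.72 to 2.27 in Sca-1Lo and 1.17 to 2.11 in Sca-1Neg, ranges that all overlap. Several of these sums and the *Gapdh* ratio move with the comparisons of the members, and their part in them was not tested.

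A gene was called where limma's adjusted p was under 0.05 over all probe sets and the log2 difference was more than 0.81, the fold limit of the study. UGE against Sca-1Neg had 19 of 36 members called higher, where 16.3% of all genes were, and 2 lower, where 12.9% were. The median log2 difference was 1.52 for members (1.47 with genes at their bound) and 0.07 for all genes. The list was drawn up with earlier results of these arrays known. The counts in UGE, here and by role below, thus describe the list and support nothing. Against Sca-1Hi, UGE had 4 members higher (15.8% of all genes) and 6 lower (12% of all genes), with a median of -0.18 for members (-0.13 with genes at their bound). Of these 6, *Nccrp1*, *Lipm* and *Padi4* had been put forward for their level in Sca-1Hi, so nothing is read from the count, and the differences of such genes from Sca-1Hi are given below with no p. Against Sca-1Lo it had 9 higher (13.4% of all genes) and 4 lower (12.2% of all genes), with a median of 0.24.

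Sca-1Hi against Sca-1Neg had 18 of 36 members higher (6.11% of all genes) and none lower (5.21% of all genes), and Sca-1Lo against Sca-1Neg had 9 higher (1.68% of all genes) and none lower (0.828% of all genes). The median log2 difference from Sca-1Neg was 1.82 in Sca-1Hi (1.63 with genes at their bound) and 0.92 in Sca-1Lo (0.79 with genes at their bound). No member was lower at an unadjusted p under 0.05 in limma in either comparison. Earlier results of these arrays had already shown envelope genes higher in both sorted populations, so these counts describe the list and support nothing, and the differences from Sca-1Neg in Sca-1Hi and Sca-1Lo are given below with their SE and no p. Sca-1Hi against Sca-1Lo had 4 members higher (0.0816% of all genes) and none lower (0.0175% of all genes). These 4 were *Dapl1*, *Nccrp1*, *Lipm* and *Padi4*, genes put forward for their level in Sca-1Hi. At an unadjusted p under 0.05 in limma, 10 members were higher in Sca-1Hi and 1 was lower, where 1374 of 17149 genes differed either way. The 10 include these 4 genes, so nothing is read from the count.

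By mean log2 signal 17 of the 36 were highest in Sca-1Hi, 13 in UGE, 3 in Sca-1Lo and 3 in Sca-1Neg. The lowest population was Sca-1Neg for 25 members and UGE for 8. In the adult cells the means of 26 members were ordered Sca-1Hi over Sca-1Lo over Sca-1Neg. The 17 highest in Sca-1Hi include *Dapl1*, *Nccrp1*, *Lipm*, *Padi4* and *Ivl*, which were put forward for that level. The same orders over all genes are not given here, so nothing is read from these counts.

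**Figure D1:**
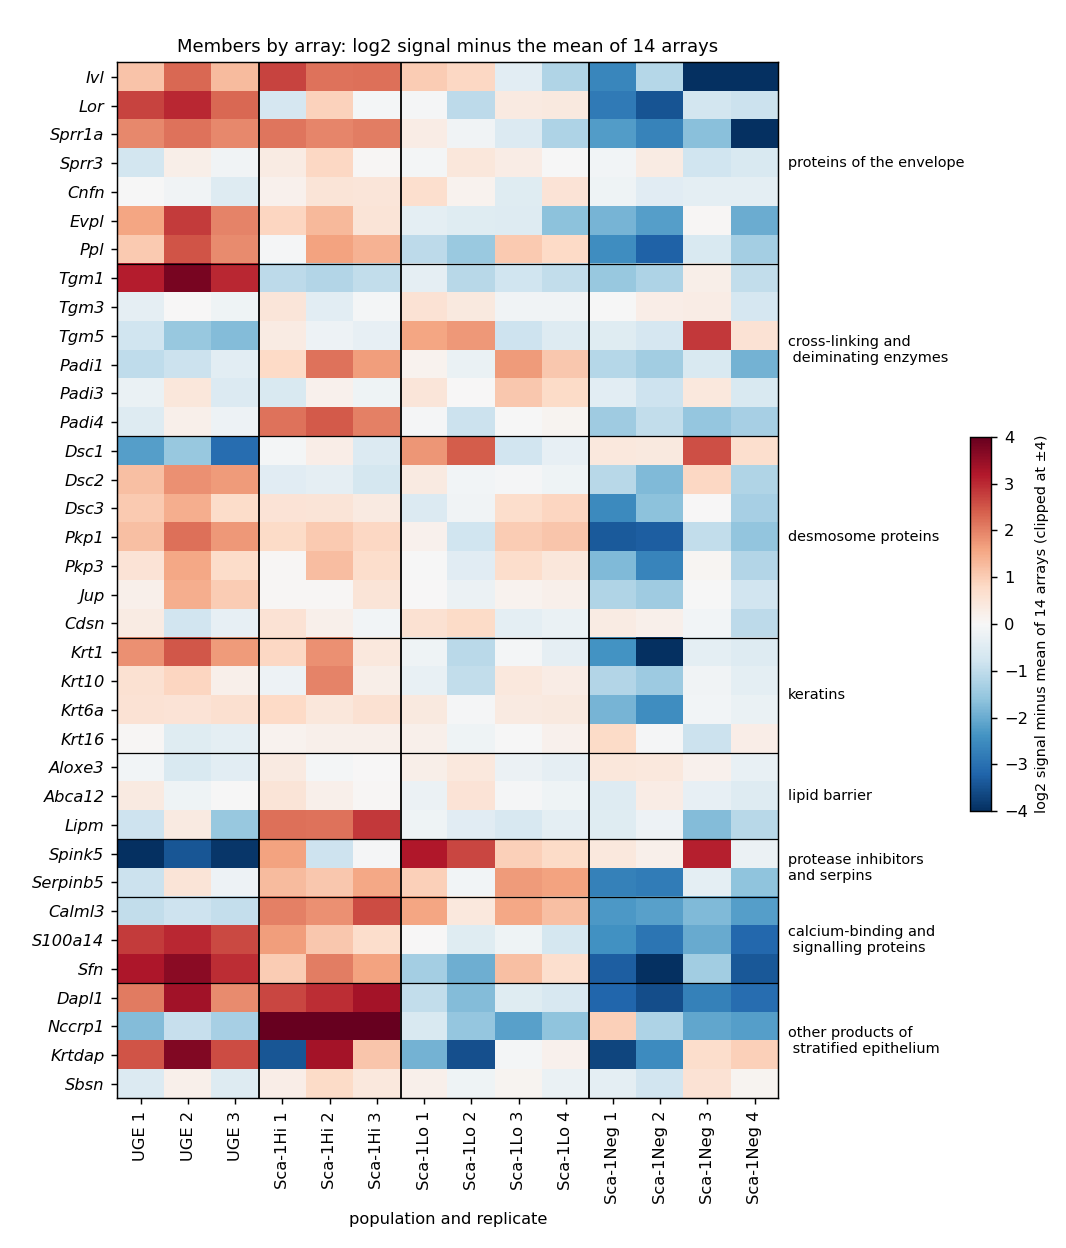
Log2 signal of the 36 tested members on the 14 arrays, each minus its gene's mean over the arrays (colour, clipped at 4 either way), with genes grouped by role. *Tgm1* stands out in UGE, *Nccrp1*, *Lipm* and *Padi4* in Sca-1Hi, and *Spink5* is lowest in UGE.

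Of 7 proteins of the envelope itself that were tested, 5 were called higher in UGE than in Sca-1Neg (71.4%, against 16.3% of all genes). These were *Ivl*, put forward from these data, and *Lor*, *Sprr1a*, *Evpl* and *Ppl*, which the study names from these arrays. Nothing is therefore read from the count. Involucrin, encoded by *Ivl*, is an early scaffold of the shell. Its signals were 109, 247 and 119 in UGE, 328, 224 and 232 in Sca-1Hi, 102, 89.2, 37.3 and 21.9 in Sca-1Lo and 8.16, 22.8, 3.03 and 2.63 in Sca-1Neg. Every UGE array and every Sca-1Hi array lay above every Sca-1Lo and Sca-1Neg array. *Ivl* was at least 7.14-fold higher in UGE than in Sca-1Neg (adjusted p = 0.000335), taking signals under 20 as 20, and at least 12.5-fold higher in Sca-1Hi and at least 2.53-fold higher in Sca-1Lo. UGE and Sca-1Hi overlapped (log2 difference -0.81 ± 0.74 SE). Another *Ivl* probe set had means of 16 in UGE, 12.9 in Sca-1Hi, 5.72 in Sca-1Lo and 4.12 in Sca-1Neg, and was not called.

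Loricrin, encoded by *Lor*, is the main protein of the mature epidermal envelope. Its signals were 5585, 6928 and 4146 in UGE, 529, 1612 and 803 in Sca-1Hi, 817, 408, 1093 and 1115 in Sca-1Lo and 119.9, 77.9, 515 and 469 in Sca-1Neg. The UGE arrays lay above all others. Sca-1Lo overlapped both other adult populations, and every Sca-1Hi array lay above every Sca-1Neg array. *Lor* was higher in UGE than in Sca-1Neg by a log2 difference of 4.64 ± 0.63 SE (adjusted p = 0.000141), than in Sca-1Hi by 2.62 ± 0.68 (adjusted p = 0.0115) and than in Sca-1Lo by 2.77 ± 0.63 (adjusted p = 0.00637). A second *Lor* probe set had the same calls. One more *Lor* probe set had means of 19.2 in UGE and 33.3 in Sca-1Neg, and was not called.

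*Sprr1a* encodes a small proline-rich protein that transglutaminases cross-link as a bridge. Its signals were 2169, 2535 and 2149 in UGE, 2499, 2205 and 2325 in Sca-1Hi, 690.2, 519, 385 and 243 in Sca-1Lo and 119.7, 89.8, 179.7 and 36.1 in Sca-1Neg. UGE and Sca-1Hi lay close together and apart from the other populations, and Sca-1Lo lay above Sca-1Neg on every array. The log2 difference was 4.64 ± 0.46 SE in UGE against Sca-1Neg (adjusted p = 9.69e-06) and 2.41 ± 0.46 in UGE against Sca-1Lo (adjusted p = 0.00188). Against Sca-1Hi it was -0.04 ± 0.49. In Sca-1Hi and Sca-1Lo the differences from Sca-1Neg were 4.68 ± 0.46 and 2.23 ± 0.42 SE. Its neighbour *Sprr1b* reached no more than 11.1 on any array.

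*Ivl*, *Lor*, *Flg*, *Sprr1a*, *Sprr1b* and *Sprr3* lie together on mouse chromosome 3, in the epidermal differentiation complex. *S100a14*, another member on chromosome 3 that was called in UGE, is not among these 6 and its promoter is not shown. The promoters of the 3 of these 6 genes that were called in UGE are shown. They serve to place the motifs of the transcription factor AP-1, which drives genes of this cluster in keratinocytes, beside the levels. They are the 250 bases before each start site in RefSeq, GRCm38.p6, minus strand, at chr3:92573736-92573985 for *Ivl*, chr3:92083143-92083392 for *Lor* and chr3:92485882-92486131 for *Sprr1a*. Capitals mark matches to the AP-1 motif TGANTCA and the TATA box TATAAA on either strand.
Ivl: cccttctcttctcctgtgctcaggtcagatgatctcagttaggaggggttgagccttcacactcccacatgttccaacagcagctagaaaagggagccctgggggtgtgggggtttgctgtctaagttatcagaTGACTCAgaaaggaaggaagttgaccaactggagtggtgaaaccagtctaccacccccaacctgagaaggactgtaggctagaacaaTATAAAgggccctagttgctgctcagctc
Lor: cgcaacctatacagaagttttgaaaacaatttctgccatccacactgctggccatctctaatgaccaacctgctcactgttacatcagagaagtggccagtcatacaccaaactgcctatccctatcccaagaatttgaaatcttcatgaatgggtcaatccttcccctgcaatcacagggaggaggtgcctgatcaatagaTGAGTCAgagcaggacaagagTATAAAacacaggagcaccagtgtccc
Sprr1a: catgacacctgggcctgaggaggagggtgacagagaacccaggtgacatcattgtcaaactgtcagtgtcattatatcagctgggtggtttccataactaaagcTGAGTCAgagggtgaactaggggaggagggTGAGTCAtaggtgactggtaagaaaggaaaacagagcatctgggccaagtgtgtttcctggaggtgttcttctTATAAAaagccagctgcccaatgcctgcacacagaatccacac
The AP-1 match began 116 bases before the start in *Ivl* and 48 before it in *Lor*, and *Sprr1a* had matches at 146 and 116. The TATA box began 29, 27 and 43 bases before the start in *Ivl*, *Lor* and *Sprr1a*. Of the 6 genes named above, 5 had an AP-1 match and 6 a TATA box, also *Flg* and *Sprr1b*, which stayed under a signal of 20, while *Sprr3* had no AP-1 match. Of the 24 members with a promoter in the table, 9 had an AP-1 match and 11 a TATA box, against 6.75% and 12.4% of 32851 promoters. *Padi4* had both as well, at 54 and 31 bases before its start. A motif of the Klf factors, GGGTGNGG, was found in 5 of the 24 and in 14.9% of all promoters, and that of the grainyhead factors, AACCGGTT, in none of the 24 and in 0.116% of all. A match is a run of letters and was not tested as a binding site.

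The plakins that line the membrane were called higher than in Sca-1Neg both in UGE and in Sca-1Hi. *Evpl*, for envoplakin, had signals of 849, 1968 and 1132 in UGE, 519, 708 and 409 in Sca-1Hi, 219, 204, 201 and 90.5 in Sca-1Lo and 77.9, 62, 294 and 71.8 in Sca-1Neg. All UGE arrays lay above all others, and replicate 3 of Sca-1Neg lay above every Sca-1Lo array. The log2 difference was 3.62 ± 0.51 SE in UGE against Sca-1Neg (adjusted p = 0.000187), 2.87 ± 0.51 in UGE against Sca-1Lo (adjusted p = 0.0012) and 2.40 ± 0.51 in Sca-1Hi against Sca-1Neg. *Ppl*, for its partner periplakin, ranged over 638 to 1746 in UGE, 299 to 934 in Sca-1Hi, 109.5 to 638 in Sca-1Lo and 32.9 to 201 in Sca-1Neg, with a log2 difference of 3.73 ± 0.72 SE in UGE against Sca-1Neg (adjusted p = 0.00195) and 2.90 ± 0.72 in Sca-1Hi against Sca-1Neg. The study names *Lor*, *Sprr1a*, *Evpl*, *Ppl* and *Krt6a* from these same arrays, so their values are no independent evidence. *Cnfn* and *Sprr3*, for cornifelin and another proline-rich protein, were called in no comparison, with means of 35.6 to 59.7 and 13.3 to 21 over the populations.

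**Figure D2:**
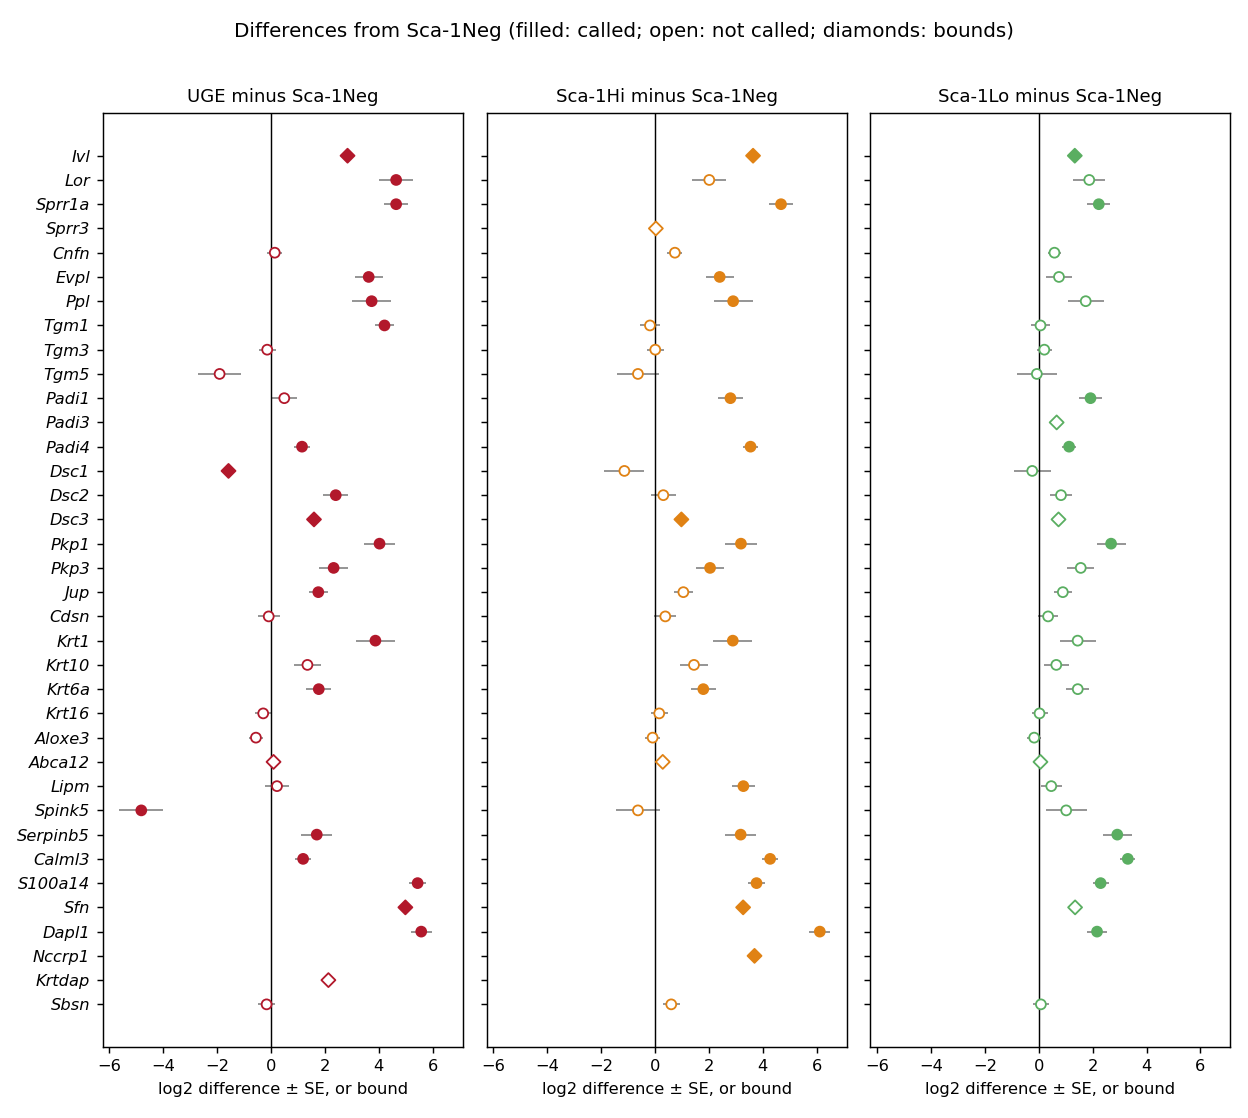
Log2 difference from Sca-1Neg (points, with SE as bars) of the tested members in UGE, Sca-1Hi and Sca-1Lo, with diamonds for bounds where a population averaged under 20 and no point where no bound could be given; filled symbols were called. In UGE *Dapl1* lies at 5.57 and *S100a14* at 5.44, and the called *Spink5* and *Dsc1* lie below 0.

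Among the cross-linking enzymes, *Tgm1* was higher in UGE than in each adult population. It encodes transglutaminase 1, the membrane-bound enzyme that joins the envelope proteins. Its signals were 664, 1042 and 611 in UGE, 36.1, 33.3 and 37.9 in Sca-1Hi, 57.9, 34.5, 42.6 and 38.2 in Sca-1Lo and 25.9, 31.8, 87.1 and 37.8 in Sca-1Neg. Every UGE array lay above every adult array, and the adult populations overlapped. The log2 difference was 4.21 ± 0.37 SE against Sca-1Neg (adjusted p = 3.57e-06), 4.39 ± 0.39 against Sca-1Hi (adjusted p = 4.79e-06) and 4.14 ± 0.37 against Sca-1Lo (adjusted p = 4.01e-06). *Tgm3* and *Tgm5*, other epidermal transglutaminases, were not called. *Tgm5* varied within populations, at 87.8, 53.7 and 46.4 in UGE, 192, 133 and 122 in Sca-1Hi, 457, 512, 87 and 106 in Sca-1Lo and 109, 96.8, 1090.3 and 230.2 in Sca-1Neg. Replicates 1 and 2 of Sca-1Lo and replicate 3 of Sca-1Neg were the high arrays.

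The peptidylarginine deiminases, which convert arginine to citrulline in such proteins as filaggrin and keratin, were lower in UGE than in Sca-1Hi in the case of *Padi4* and *Padi1*. *Padi4* had signals of 38.8, 63.3 and 47.7 in UGE, 252, 306 and 224 in Sca-1Hi, 54, 30.5, 55.4 and 59.2 in Sca-1Lo and 20.5, 28.3, 18.8 and 21.9 in Sca-1Neg. The 3 Sca-1Hi arrays lay above all the rest. UGE was lower than Sca-1Hi (log2 difference -2.40 ± 0.30 SE) and higher than Sca-1Neg (1.15 ± 0.28 SE, adjusted p = 0.00878). Without replicate 2 of UGE the difference from Sca-1Neg was 0.96 (adjusted p = 0.054). The difference of Sca-1Hi from Sca-1Neg was 3.55 ± 0.28, that from Sca-1Lo 2.42 ± 0.28 and that of Sca-1Lo from Sca-1Neg 1.12 ± 0.26. *Padi1* had signals of 34.3, 38.4 and 52.5 in UGE, 121, 316 and 221 in Sca-1Hi, 76.1, 58.6, 226 and 148 in Sca-1Lo and 31.7, 26.7, 45.8 and 18.9 in Sca-1Neg. UGE lay below every Sca-1Hi and Sca-1Lo array (log2 differences -2.31 ± 0.50 SE, adjusted p = 0.00405, and -1.43 ± 0.47 SE, adjusted p = 0.041), and the differences from Sca-1Neg were 2.80 ± 0.47 in Sca-1Hi and 1.92 ± 0.43 in Sca-1Lo. *Padi3* was not called in any comparison, with means of 19.7 to 37 over the populations.

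**Figure D3:**
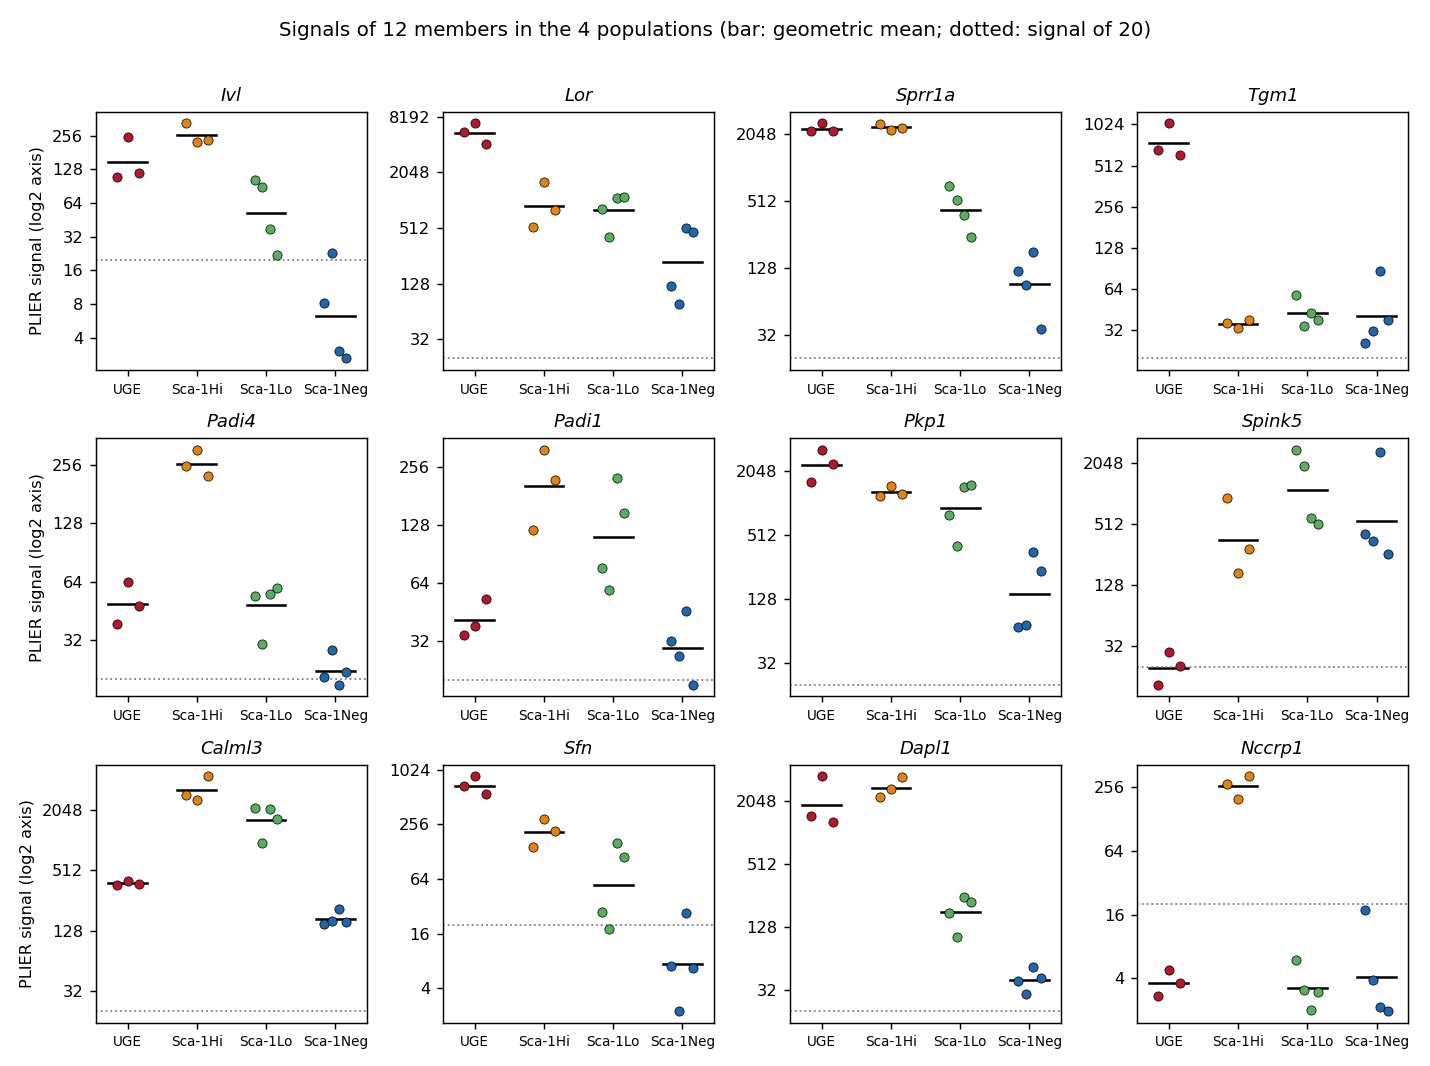
PLIER signal on a log2 axis of 12 members on each array of UGE, Sca-1Hi, Sca-1Lo and Sca-1Neg (points), with the geometric mean (bar) and a signal of 20 (dotted line). *Sprr1a* and *Dapl1* overlap in UGE and Sca-1Hi, *Tgm1* lies above every adult array in UGE, and *Spink5* is under 30 on every UGE array.

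Of 7 desmosome genes tested, 5 were called higher in UGE than in Sca-1Neg (71.4%, against 16.3% of all genes) and 1 lower (14.3%, against 12.9%). Plakophilin 1, which strengthens desmosomes of suprabasal cells and is encoded by *Pkp1*, had signals of 1627, 3263 and 2396 in UGE, 1204, 1479 and 1266 in Sca-1Hi, 801, 408, 1454 and 1523 in Sca-1Lo and 69.5, 72.2, 358 and 237 in Sca-1Neg. Every array of UGE, Sca-1Hi and Sca-1Lo lay above every Sca-1Neg array. The log2 difference from Sca-1Neg was 4.02 ± 0.58 SE in UGE (adjusted p = 0.000233), 3.19 ± 0.58 in Sca-1Hi and 2.68 ± 0.54 in Sca-1Lo. *Pkp3* ranged over 865 to 1714 in UGE, 609 to 1390.1 in Sca-1Hi, 432 to 966 in Sca-1Lo and 94.2 to 624 in Sca-1Neg, with a log2 difference of 2.32 ± 0.54 SE in UGE against Sca-1Neg (adjusted p = 0.00588) and 2.04 ± 0.54 in Sca-1Hi. Its other probe set was called only in UGE against Sca-1Neg. *Jup*, for plakoglobin, which ties the cadherins to the plaque, ranged over 392 to 919 in UGE, 345 to 479.8 in Sca-1Hi, 284 to 389 in Sca-1Lo and 125 to 333 in Sca-1Neg and was 3.37-fold higher in UGE than in Sca-1Neg (adjusted p = 0.00258).

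The desmosomal cadherins did not move as one. Desmocollin 2, the most widespread of its family, had *Dsc2* signals of 503, 768 and 715 in UGE, 160.4, 168 and 133 in Sca-1Hi, 278, 201, 211 and 194 in Sca-1Lo and 100.4, 64.5, 383 and 93.7 in Sca-1Neg. All UGE arrays lay above all others, with log2 differences of 2.40 ± 0.46 SE against Sca-1Neg (adjusted p = 0.00181), 2.09 ± 0.49 against Sca-1Hi (adjusted p = 0.00678) and 1.57 ± 0.46 against Sca-1Lo (adjusted p = 0.0246). The other *Dsc2* probe set was called only against Sca-1Hi (log2 difference 1.46). *Dsc1*, for the desmocollin of the uppermost epidermal layers, went the other way. Its signals were 6.49, 10.3 and 3.6 in UGE, 28.1, 35.9 and 20.1 in Sca-1Hi, 101, 159, 17.4 and 23.4 in Sca-1Lo and 39.7, 38.6, 178 and 47.2 in Sca-1Neg. It was at least 2.99-fold lower in UGE than in Sca-1Neg (adjusted p = 0.0053) and at least 2.53-fold lower than in Sca-1Lo (adjusted p = 0.0096). Replicates 1 and 2 of Sca-1Lo and replicate 3 of Sca-1Neg were the high arrays, as for *Tgm5*. The other *Dsc1* probe set was not called.

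*Dsc3*, for the desmocollin of basal cells, ranged over 53.1 to 89 in UGE, 41.3 to 46.8 in Sca-1Hi, 21.8 to 59 in Sca-1Lo and 5.53 to 32.2 in Sca-1Neg and was at least 3.01-fold higher in UGE than in Sca-1Neg (adjusted p = 0.00252) and at least 1.97-fold higher in Sca-1Hi. Its other probe set had no call. *Cdsn*, for corneodesmosin, was called nowhere, with means of 47.1 to 64.8.

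Of 4 keratins tested, *Krt1* and *Krt6a* were called higher than in Sca-1Neg, both in UGE (50%, against 16.3% of all genes) and in Sca-1Hi (50%, against 6.11%). *Krt1*, for keratin 1 of suprabasal cells, had signals of 322, 506 and 297 in UGE, 161, 322 and 121 in Sca-1Hi, 80.8, 43, 85.3 and 70.8 in Sca-1Lo and 17.3, 5.1, 69.6 and 62.8 in Sca-1Neg. Every UGE and Sca-1Hi array lay above every Sca-1Lo and Sca-1Neg array, and UGE and Sca-1Hi overlapped. The log2 difference was 3.87 ± 0.72 SE in UGE against Sca-1Neg (adjusted p = 0.00147), 2.43 ± 0.72 in UGE against Sca-1Lo (adjusted p = 0.0264) and 2.89 ± 0.72 in Sca-1Hi against Sca-1Neg. Without replicate 2 of UGE the difference from Sca-1Lo was 2.19 (adjusted p = 0.103), and the call was also lost without replicate 1 or 3 of UGE or replicate 2 of Sca-1Lo. Its partner *Krt10* was not called, with means of 199.5 to 637, and replicate 2 of Sca-1Hi was the highest array at 1257. *Krt16*, a keratin of wounded and hyperproliferative epidermis, was not called and had means of 26 to 35.1.

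For *Krt6a*, a keratin of the same setting, the answer depended on the probe set. The one with the highest mean, whose name ends in x_at, had signals of 1187, 1164 and 1230.3 in UGE, 1370.5, 1092 and 1198 in Sca-1Hi, 1043, 766, 1011 and 1029 in Sca-1Lo and 219, 140.4, 739.9 and 663 in Sca-1Neg. It was called higher than Sca-1Neg in UGE (log2 difference 1.77 ± 0.47 SE, adjusted p = 0.0128) and in Sca-1Hi (1.79 ± 0.47 SE), and UGE and Sca-1Hi overlapped. The second probe set had signals of 2391, 4748 and 3347 in UGE, 90.7, 121 and 118 in Sca-1Hi, 65.3, 67.7, 56.6 and 40.7 in Sca-1Lo and 46.4, 76.1, 49.5 and 35.5 in Sca-1Neg. There UGE was above every adult array by a log2 difference of 6.07 ± 0.31 SE from Sca-1Neg (adjusted p = 4.68e-08), 4.95 ± 0.33 from Sca-1Hi (adjusted p = 5.29e-07) and 5.89 ± 0.31 from Sca-1Lo (adjusted p = 5.35e-08). The third probe set gave 5.01 ± 0.26 SE in UGE against Sca-1Neg (adjusted p = 4.68e-08). In Affymetrix naming this ending marks probes that may bind other transcripts, and *Krt6b*, the close copy of *Krt6a*, had means of 15.5 in UGE, 13.9 in Sca-1Hi, 12.4 in Sca-1Lo and 15.7 in Sca-1Neg. Binding of other keratin transcripts was not tested, and the level of *Krt6a* in adult cells is uncertain.

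**Figure D4:**
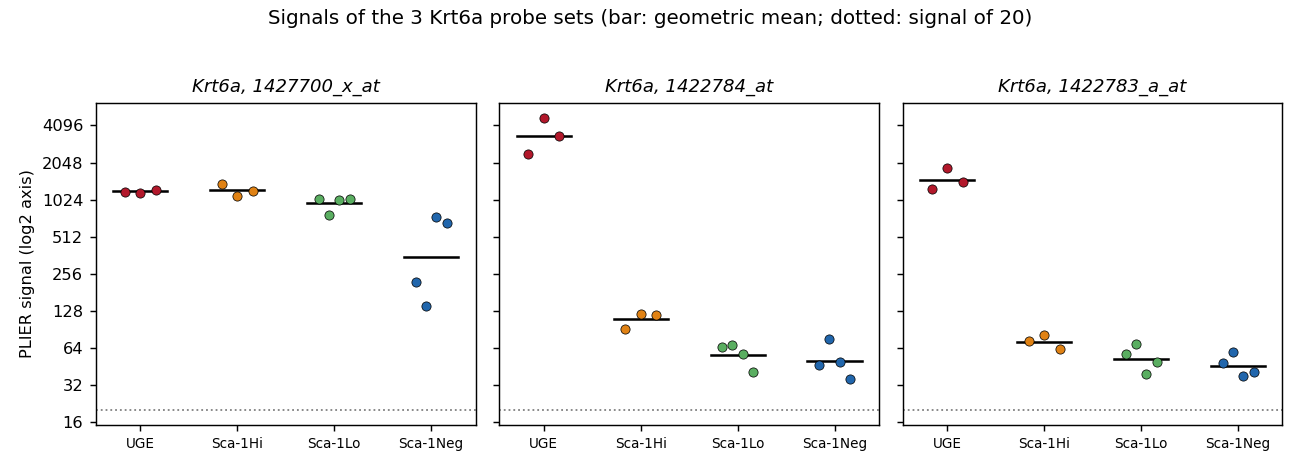
PLIER signal on a log2 axis of the 3 *Krt6a* probe sets on each array of UGE, Sca-1Hi, Sca-1Lo and Sca-1Neg (points), with the geometric mean (bar) and a signal of 20 (dotted line). In the left panel UGE and Sca-1Hi overlap, while in the other two UGE lies above every adult array.

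Of the lipid barrier genes *Lipm* alone was called. It encodes a lipase of the granular layer of human epidermis. Its signals were 64.3, 148 and 40.1 in UGE, 525, 516 and 819.9 in Sca-1Hi, 102, 84, 72.9 and 87 in Sca-1Lo and 82, 99.1, 34.6 and 53.6 in Sca-1Neg. The Sca-1Hi arrays lay above all others, and UGE, Sca-1Lo and Sca-1Neg overlapped. UGE was lower than Sca-1Hi (log2 difference -3.06 ± 0.46 SE). Sca-1Hi differed by 3.28 ± 0.43 from Sca-1Neg and by 2.82 ± 0.43 from Sca-1Lo. The other probe set was also highest in Sca-1Hi on every array, at a mean of 63.7, against 15.7 in UGE, 25.6 in Sca-1Lo and 23.1 in Sca-1Neg, but was not called against Sca-1Lo. The lipoxygenase *Aloxe3* and the lipid transporter *Abca12* were not called, with means of 58.5 to 87.3 and 19.1 to 26.7.

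*Spink5* and *Serpinb5*, listed as protease inhibitors and serpins, went opposite ways in UGE against Sca-1Neg. *Spink5* encodes LEKTI, which holds back the kallikreins that shed corneocytes. Its signals were 13.3, 28.1 and 20.1 in UGE, 922, 169 and 289.6 in Sca-1Hi, 2751, 1917, 582 and 509 in Sca-1Lo and 404, 344, 2603 and 258 in Sca-1Neg. The UGE arrays lay under 30 and below every adult array, by log2 differences of -4.82 ± 0.82 SE from Sca-1Neg (adjusted p = 0.000769), -4.19 ± 0.88 from Sca-1Hi (adjusted p = 0.00331) and -5.84 ± 0.82 from Sca-1Lo (adjusted p = 0.000185). The adult populations overlapped, and the high arrays were again replicates 1 and 2 of Sca-1Lo and replicate 3 of Sca-1Neg. *Serpinb5*, for maspin, a serpin of basal epithelial cells, had signals of 222, 575 and 352 in UGE, 972, 859 and 1188 in Sca-1Hi, 780.0, 378, 1302 and 1226 in Sca-1Lo and 62.1, 57.7, 309 and 132 in Sca-1Neg. All Sca-1Hi and Sca-1Lo arrays lay above all Sca-1Neg arrays, with differences of 3.18 ± 0.57 and 2.91 ± 0.53 SE. UGE overlapped Sca-1Neg (1.69 ± 0.57 SE, adjusted p = 0.0415), a call that was lost in 9 of the 14 fits without 1 array (lowest 1.35, adjusted p = 0.174, without replicate 2 of UGE). Of its 4 probe sets 1 was called in no comparison.

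All 3 calcium-binding and signalling genes were called higher in UGE than in Sca-1Neg, where 16.3% of all genes were. *Sfn* encodes stratifin, a 14-3-3 protein that restrains the cell cycle in keratinocytes. Its signals were 667, 860.5 and 549.8 in UGE, 144, 293 and 214 in Sca-1Hi, 27.6, 18.2, 161 and 112 in Sca-1Lo and 7.13, 2.25, 26.9 and 6.71 in Sca-1Neg. UGE lay above every adult array, at least 31.6-fold above Sca-1Neg (adjusted p = 5.51e-05) and by a log2 difference of 3.63 ± 0.80 SE above Sca-1Lo (adjusted p = 0.00485), and Sca-1Hi was at least 9.66-fold above Sca-1Neg. *S100a14*, for a calcium-binding protein of the S100 family, had signals of 2401, 2775 and 2149 in UGE, 1099, 726 and 559.6 in Sca-1Hi, 353, 248, 306 and 213 in Sca-1Lo and 64.5, 45.9, 85.8 and 38.9 in Sca-1Neg. These 4 populations did not overlap and ran from UGE through Sca-1Hi and Sca-1Lo to Sca-1Neg. UGE was higher than Sca-1Neg by 5.44 ± 0.32 SE (adjusted p = 1.18e-07), than Sca-1Hi by 1.67 ± 0.34 (adjusted p = 0.00283) and than Sca-1Lo by 3.14 ± 0.32 (adjusted p = 1.19e-05).

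*Calml3*, for a calmodulin-like protein that rises as human keratinocytes differentiate, was lower in UGE than in Sca-1Hi and Sca-1Lo. Its signals were 367, 405 and 369.8 in UGE, 2935, 2575 and 4458 in Sca-1Hi, 2154, 965, 2111 and 1682 in Sca-1Lo and 147, 159.9, 212 and 156 in Sca-1Neg. Sca-1Hi lay above Sca-1Lo, Sca-1Lo above UGE and UGE above Sca-1Neg, with no overlap between any of them. UGE differed by 1.19 ± 0.30 SE from Sca-1Neg (adjusted p = 0.0103), -3.09 ± 0.32 from Sca-1Hi (adjusted p = 1.68e-05) and -2.12 ± 0.30 from Sca-1Lo (adjusted p = 0.00021). The differences from Sca-1Neg were 4.27 ± 0.30 SE in Sca-1Hi and 3.30 ± 0.28 in Sca-1Lo.

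Among other products of stratified epithelium, *Dapl1* was higher in UGE and in Sca-1Hi than in Sca-1Lo and Sca-1Neg. It encodes a death-associated protein-like factor found in differentiating epithelia. Its signals were 1471, 3535 and 1280.2 in UGE, 2220.2, 2679 and 3493 in Sca-1Hi, 175, 103, 248 and 219.8 in Sca-1Lo and 38.5, 29.2, 52.7 and 41.4 in Sca-1Neg. UGE and Sca-1Hi overlapped, Sca-1Lo lay below both and Sca-1Neg lay lowest, with no overlap. UGE differed by 5.57 ± 0.39 SE from Sca-1Neg (adjusted p = 5.90e-07), 3.41 ± 0.39 from Sca-1Lo (adjusted p = 3.08e-05) and -0.55 ± 0.41 from Sca-1Hi. Sca-1Hi differed by 6.12 ± 0.39 from Sca-1Neg and 3.96 ± 0.39 from Sca-1Lo.

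*Nccrp1*, named in mammals for a fish receptor and found in squamous epithelium, was above a signal of 20 in Sca-1Hi alone. Its signals were 2.74, 4.8 and 3.61 in UGE, 274, 198 and 321 in Sca-1Hi, 5.92, 3.1, 2.03 and 2.99 in Sca-1Lo and 17.8, 3.84, 2.17 and 1.97 in Sca-1Neg. In the other populations every array was under 20. UGE was at least 13-fold lower than Sca-1Hi, and Sca-1Hi was at least 13-fold above Sca-1Lo and Sca-1Neg. The gene passed the signal filter only through Sca-1Hi. *Krtdap*, for keratinocyte differentiation-associated protein, had signals of 67.6, 153 and 71 in UGE, 1.09, 118 and 25.1 in Sca-1Hi, 3.19, 1.03, 11.2 and 13.3 in Sca-1Lo and 0.919, 2.03, 19.2 and 22.9 in Sca-1Neg. The UGE arrays lay above every Sca-1Lo and Sca-1Neg array, but the adult arrays varied widely and the gene was not called (UGE against Sca-1Neg at least 4.36-fold, adjusted p = 0.054). *Sbsn*, for suprabasin, was not called and had means of 415 to 694.

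Across the comparisons, 24 of the 36 tested members were called at least once and 12 were not. Against Sca-1Neg, 8 were called higher in all 3 populations, 7 in UGE and Sca-1Hi but not in Sca-1Lo, 4 in UGE only, 2 in Sca-1Hi only and 1 in Sca-1Hi and Sca-1Lo. The shares of all genes with such patterns are not given here, so nothing is read from the counts. The 3 comparisons share the Sca-1Neg arrays, so these counts are not independent of each other, and a gene past the threshold in one population and not in another is not shown to differ between them. UGE against Sca-1Hi gave 10 calls. Higher in UGE were *Tgm1*, *Lor*, *Dsc2* and *S100a14*, and lower were *Nccrp1*, *Spink5*, *Calml3*, *Lipm*, *Padi4* and *Padi1*. Against Sca-1Lo the 9 higher in UGE were *Tgm1*, *Sfn*, *Dapl1*, *S100a14*, *Evpl*, *Lor*, *Krt1*, *Sprr1a* and *Dsc2*, and the 4 lower were *Spink5*, *Dsc1*, *Calml3* and *Padi1*. Of the 11 members with several tested probe sets, 9 had probe sets that differed in call in at least 1 comparison, and none had opposite calls.

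The adult arrays fall into 2 sets by the sample numbers in the study's supplementary tables, whose meaning is not given. Numbers 1 and 2 hold 1 Sca-1Hi, 2 Sca-1Lo and 2 Sca-1Neg arrays, and numbers 3 to 5 hold 2 of each. With only the adult arrays of numbers 1 and 2, 17 members were higher in Sca-1Hi than in Sca-1Neg (median log2 difference 2.16, with 2.85% of all genes higher), and with only those of 3 to 5, 13 were (median 1.29, 3.98% of all genes). The first of these rests on 1 Sca-1Hi array, which the fit assumes to vary like the other populations. In Sca-1Lo against Sca-1Neg the counts were 11 (median 1.57, 2.3% of all genes) and 6 (median 0.60, 1.69% of all genes), with 14 when the set was a block (3.51% of all genes). In UGE against Sca-1Neg they were 21 higher and 3 lower with numbers 1 and 2, where 27.9% and 16.8% of all genes were, and 17 higher and 3 lower with 3 to 5, where 10.8% and 12.7% were. *Tgm5*, *Spink5* and *Dsc1* were not called in Sca-1Lo against Sca-1Neg with all arrays, and their log2 differences had opposite signs in the sets. *Tgm5* and *Spink5* were called higher within numbers 1 and 2, with differences of 2.24 and 2.62, and not called within 3 to 5, with -2.38 and -0.59. *Dsc1* was called in neither set, with 1.70 within numbers 1 and 2 and -2.18 within 3 to 5. Leaving out 1 array at a time moved the 9 calls in Sca-1Lo against Sca-1Neg most (1.68% of all genes with every array). They became 17 without replicate 3 of Sca-1Neg (4.15% of all genes) and 4 without replicate 1 of Sca-1Neg (0.846%). Without replicates 1, 3 and 4 of Sca-1Lo they were 4, 3 and 5 (1.01%, 0.694% and 0.764%). The share of all genes thus moved the same way. Of the 75 calls of a member in a comparison, 55 held in all 14 fits without 1 array, among them all 10 of UGE against Sca-1Hi, 3 of which are the genes put forward for Sca-1Hi. In UGE against Sca-1Lo, *Dsc1* was lost without replicate 3 of UGE (adjusted p = 0.0562), *Dsc2* in 4 of the 14 fits (lowest log2 difference 1.45) and *Padi1* in 7 (smallest -1.09). In Sca-1Hi against Sca-1Neg 6 of 18 calls were lost in at least 1 fit: *Evpl* without replicate 2 of Sca-1Hi (log2 difference 2.17), *Krt1* in 2 fits (lowest 2.13), *Krt6a* in 4 (1.35), *Pkp3* in 4 (1.62), *Ppl* in 4 (2.47) and *Dsc3* in 6. In Sca-1Lo against Sca-1Neg only *Calml3*, *S100a14* and *Dapl1* held throughout, and in Sca-1Hi against Sca-1Lo only *Nccrp1* and *Dapl1*. As *Nccrp1* and *Dapl1* had been put forward for their level in Sca-1Hi, nothing is read from the latter. With the replicate number as a block Sca-1Lo against Sca-1Neg had 9 calls again, but *Padi4* (log2 difference 1.13) was no longer called and *Sfn* was.

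The rest of the squamous program was followed in 129 further tested genes of 167 listed, in 6 lists by role. UGE against Sca-1Neg had 40 of them higher (31%, against 16.3% of all genes) and 9 lower (6.98%, against 12.9%). Sca-1Hi against Sca-1Neg had 26 higher (20.2%, against 6.11%) and 1 lower (0.775%, against 5.21%). Sca-1Lo against Sca-1Neg had 11 higher (8.53%, against 1.68%) and 1 lower (0.775%, against 0.828%). The median log2 differences of these genes were 0.22, 0.43 and 0.35, each below that of the members. These lists too were chosen with earlier results of these data known, so their counts, here and by list below, describe the lists and support nothing. Of 26 envelope precursors, 3 were higher in UGE than in Sca-1Neg, which at 11.5% is under the 16.3% of all genes, and 4 in Sca-1Hi (15.4%, against 6.11%). *Scel*, for sciellin, averaged 491 ± 198 in UGE, 672 ± 77 in Sca-1Hi, 150.3 ± 53.8 in Sca-1Lo and 32.4 ± 17.3 in Sca-1Neg (mean signal ± SD, as for the genes that follow). *Tchh*, for trichohyalin of the hair follicle, averaged 203 ± 25.6 in UGE, 103 ± 37.9 in Sca-1Hi, 75.6 ± 38.9 in Sca-1Lo and 22.6 ± 18 in Sca-1Neg. *Sprr2f*, 1 of a family of near-identical genes and so uncertain, averaged 43.3 ± 15.2 in UGE, 219 ± 113 in Sca-1Hi, 109.8 ± 60.4 in Sca-1Lo and 46.2 ± 32.4 in Sca-1Neg, and was higher in Sca-1Hi than in both UGE and Sca-1Neg.

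Of 11 keratins of stratified epithelia, 3 were higher in UGE than in Sca-1Neg (27.3%, against 16.3% of all genes). In Sca-1Hi 2 were higher than in Sca-1Neg (18.2%, against 6.11%), and 2 in Sca-1Lo (18.2%, against 1.68%). *Krt4*, a keratin of internal squamous epithelia that the study names from these arrays, averaged 9550.5 ± 2301 in UGE, 9328 ± 159 in Sca-1Hi, 2158 ± 902 in Sca-1Lo and 330.1 ± 110.3 in Sca-1Neg. Its partner *Krt13* averaged 188 ± 52.6 in UGE, 184 ± 28.2 in Sca-1Hi, 85.2 ± 29.6 in Sca-1Lo and 16.9 ± 14.9 in Sca-1Neg. Both were called higher than in Sca-1Neg in UGE, Sca-1Hi and Sca-1Lo, and UGE and Sca-1Hi differed by 0.00 ± 0.38 for *Krt4* and 0.01 ± 0.52 for *Krt13* (log2, SE). *Krt17* averaged 597 ± 167 in UGE, 233 ± 142 in Sca-1Hi, 374 ± 302 in Sca-1Lo and 59.3 ± 71.6 in Sca-1Neg and was called higher than in Sca-1Neg only in UGE.

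Of 10 cell contact genes, 4 were higher in UGE than in Sca-1Neg (40%, against 16.3% of all genes) and 1 lower (10%, against 12.9%). *Lypd3*, for the membrane protein C4.4A of suprabasal cells, averaged 594 ± 84.6 in UGE, 33 ± 5.71 in Sca-1Hi, 11.8 ± 8.7 in Sca-1Lo and 8.05 ± 4.75 in Sca-1Neg. *Gjb6*, for connexin 30, averaged 455 ± 174 in UGE, 33.3 ± 5.19 in Sca-1Hi, 39.3 ± 13.7 in Sca-1Lo and 31.1 ± 5.79 in Sca-1Neg. The tight junction gene *Cldn1* was lower in UGE than in each adult population, at 51.9 ± 8.4 in UGE, 452 ± 172 in Sca-1Hi, 1124 ± 721 in Sca-1Lo and 406 ± 239 in Sca-1Neg. Of 31 barrier enzymes, 11 were higher in UGE than in Sca-1Neg (35.5%, against 16.3%) and 3 lower (9.68%, against 12.9%). *Asprv1*, for a protease that processes filaggrin, averaged 4006 ± 1228 in UGE, 70.4 ± 8.84 in Sca-1Hi, 77.4 ± 30.2 in Sca-1Lo and 75 ± 13.1 in Sca-1Neg. It was higher in UGE than in each adult population, as were *Lypd3* and *Gjb6*. *Tgm2*, for the tissue enzyme, averaged 123 ± 109.7 in UGE, 9098 ± 1748 in Sca-1Hi, 7286 ± 3831 in Sca-1Lo and 5391 ± 3417 in Sca-1Neg, and *Tgm4*, for the secreted prostate enzyme, averaged 19.7 ± 16.6 in UGE, 4497 ± 1469 in Sca-1Hi, 8491 ± 3582 in Sca-1Lo and 9155 ± 3384 in Sca-1Neg, and both were lower in UGE than in each adult population.

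Of 24 regulators of stratification, 10 were higher in UGE than in Sca-1Neg (41.7%, against 16.3% of all genes) and 1 lower (4.17%, against 12.9%). In Sca-1Hi 6 were higher (25%, against 6.11%). *Grhl3*, a grainyhead factor needed for the skin barrier, averaged 2417 ± 952 in UGE, 151 ± 34.3 in Sca-1Hi, 33.1 ± 11.4 in Sca-1Lo and 6.21 ± 4.97 in Sca-1Neg, and was at least 115-fold higher in UGE than in Sca-1Neg (adjusted p = 3.95e-07) and at least 7.41-fold higher in Sca-1Hi. *Klf4*, another barrier factor, was lower in UGE than in every adult population, at 458 ± 143 in UGE, 5838 ± 2396 in Sca-1Hi, 4266 ± 3132 in Sca-1Lo and 1766 ± 614 in Sca-1Neg. *Trp63*, for the master factor of stratified epithelia, which the study also names, averaged 3187 ± 718 in UGE, 1643 ± 678 in Sca-1Hi, 2560.0 ± 1834 in Sca-1Lo and 399 ± 372 in Sca-1Neg. Of 27 further products of squamous cells, 9 were higher in UGE than in Sca-1Neg (33.3%, against 16.3%) and 4 lower (14.8%, against 12.9%). In Sca-1Hi 10 were higher (37%, against 6.11%). *Anxa8* for an annexin averaged 868 ± 422 in UGE, 773 ± 255 in Sca-1Hi, 122 ± 82 in Sca-1Lo and 24.4 ± 5.24 in Sca-1Neg, and *Barx2* for a homeobox factor averaged 52.2 ± 17 in UGE, 44.1 ± 19.5 in Sca-1Hi, 13.1 ± 7.37 in Sca-1Lo and 2.83 ± 1.51 in Sca-1Neg. *Clca2*, for a membrane protein of stratified epithelia, averaged 210.1 ± 86.5 in UGE, 93.2 ± 24.2 in Sca-1Hi, 16 ± 2.64 in Sca-1Lo and 10.7 ± 2.51 in Sca-1Neg and was higher in UGE and in Sca-1Hi than in Sca-1Lo and Sca-1Neg. The study also names *Lypd3*, *Klf4* and *Anxa8* from these same arrays, so their values are no independent evidence.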

How the data were processed

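Total RNA of the sorted cells and of UGE was labelled by 2 rounds of amplification and hybridized to 14 Affymetrix MOE430 2.0 arrays. The deposited table holds 1 linear PLIER signal intensity per probe set and array, summarized by the authors. The submitters' notes also name MAS5. The arrays have no read depth, and their number limits the precision.

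Signals were taken to log2 with no constant, and probe sets above 20 on at least 1 array (41031 of 45101) entered 1 limma fit (limma 3.58.1, R 4.3.3) of the 4 population means over the 14 arrays. A call needed a Benjamini-Hochberg adjusted p under 0.05 over all probe sets and a log2 difference above 0.81, the fold limit of the study. The study's methods used a t-test, which was run as an alternative. The probe set of highest mean over the arrays stood for a gene, and genes were named from the platform annotation where a probe set has 1 gene. Where a population averaged 20 or less, the fold is given as a bound, with signals under 20 set to 20. Python 3.11.15, pandas 2.3.3 and matplotlib 3.10.9 were used for tables and figures. The script was tested on simulated data.

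Members and pathway lists were chosen with earlier results of these data known. Signals on every array are given for members with a call, up to 10 a comparison by absolute difference among those whose populations do not overlap, and for the others the range or the means. *Tgm5*, *Krtdap* and the second *Krt6a* probe set were added after their values were seen. Up to 3 called genes of each pathway list, those with the largest absolute difference in any comparison, were named. In 4 pairs of Sca-1Lo and Sca-1Neg samples with the same replicate number, deviations from population means over probe sets correlated at 0.12 to 0.56. Some pairs of unlike number correlated as much. Replicate 2 of Sca-1Lo did so with replicate 1 of Sca-1Neg (0.41), and replicate 3 with replicate 4 of Sca-1Neg (0.45), while others were below 0. In the other pairs of populations the correlations of the same number went down to 0.02 or below 0. The replicate numbers are thus not shown to be pairs. Replicate 2 of Sca-1Hi has study number 3, and replicate 2 of Sca-1Lo and Sca-1Neg number 2, so the replicate block mixes the 2 sets of numbers. The alternatives tried were other filters, an added constant, centring on the 75th percentile, quantile normalization, a fit of only the populations compared, the replicate and study numbers as blocks, the adult arrays of either set of numbers alone, array weights, an intensity trend, other probe set rules and each array left out in turn. *Dsg3* and *Ly6a* were not analysed here.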

Additional observations from a re-analysis of the deposited data

Results flagged for a closer look

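In groups of 4 arrays, 1 array stood apart from the other 3 by Dixon's gap test on the log2 signals in 5 of 72 groups, where chance gives about 5%. *Evpl* was low at 90.5 in replicate 4 of Sca-1Lo. *Evpl* was high at 294 in replicate 3 of Sca-1Neg. *Padi4* was low at 30.5 in replicate 2 of Sca-1Lo. *Dsc1* was high at 178 in replicate 3 of Sca-1Neg. *Krt6a* was low at 766 in replicate 2 of Sca-1Lo. Replicate 3 of Sca-1Neg was also the Sca-1Neg array with the highest sums of basal and luminal markers, and the part of these in its values was not tested.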

How the results depend on the processing

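No call of a member changed direction under any alternative run. The number of arrays limits the precision. With the methods' t-test, adjusted, UGE against Sca-1Neg had 12 members higher (8.47% of all genes) and 1 lower (5.09%). Sca-1Hi against Sca-1Neg had 4 higher (0.793%) and Sca-1Lo against Sca-1Neg 0, where 2 of 17149 genes were higher. UGE against Sca-1Hi had 5 higher (13.5%) and 6 lower (8.82%), and UGE against Sca-1Lo 8 higher (10.5%) and 2 lower (8.83%). Sca-1Hi against Sca-1Lo had 0 of the members and 0 of all genes. At an unadjusted p UGE against Sca-1Neg had 19 higher and 2 lower, Sca-1Hi against Sca-1Neg 18 higher and Sca-1Lo against Sca-1Neg 14 higher. UGE against Sca-1Hi had 6 higher and 9 lower, UGE against Sca-1Lo 11 higher and 4 lower, and Sca-1Hi against Sca-1Lo 10 higher. The share of all genes at that threshold is not given here, so nothing is read from these counts. With array weights, whose estimation stopped before it converged, UGE against Sca-1Neg had 5 lower (22% of all genes), Sca-1Lo against Sca-1Neg 19 higher and 1 lower (11.2% and 5.95% of all genes), UGE against Sca-1Hi 8 higher and 12 lower (19.7% and 23%), UGE against Sca-1Lo 14 higher and 8 lower (16.2% and 21.3%), and Sca-1Hi against Sca-1Lo 9 higher (0.811%). Sca-1Lo against Sca-1Neg had 3 with only those populations in the fit (0.606% of all genes) and 14 with the study numbers as a block (3.51%). Within numbers 1 and 2, UGE against Sca-1Lo had 14 higher (20.5% of all genes). Sca-1Hi against Sca-1Lo had 0 there, with 1 Sca-1Hi array and none of all genes called in limma (1233 at an unadjusted p under 0.05), and within 3 to 5 Sca-1Hi against Sca-1Lo had 1. With the replicate block UGE against Sca-1Neg had 20 higher and 2 lower (19.8% and 13.5% of all genes). Sca-1Hi against Sca-1Neg had 19 and 0 (7.01% and 4.74%), and Sca-1Lo against Sca-1Neg 9 and 0 (2.19% and 1.32%). UGE against Sca-1Hi had 4 and 6 (17.3% and 12.9%), and UGE against Sca-1Lo 12 and 4 (16.6% and 12.9%). Sca-1Hi against Sca-1Lo had 3 and 0 (0.0466% and 0.035%). With 1 array left out UGE against Sca-1Neg had 17 to 21 higher and 2 lower, Sca-1Hi against Sca-1Neg 12 to 21 and 0, Sca-1Lo against Sca-1Neg 3 to 17 and 0, UGE against Sca-1Hi 4 to 5 and 6 to 8, UGE against Sca-1Lo 7 to 11 and 2 to 5, and Sca-1Hi against Sca-1Lo 2 to 5 and 0. In those fits the share of all genes higher ranged over 2.8% to 8.04% in Sca-1Hi against Sca-1Neg and 0.694% to 4.15% in Sca-1Lo against Sca-1Neg. The lower calls of UGE against Sca-1Lo were 2 without replicate 3 of UGE, and the higher calls of Sca-1Hi against Sca-1Lo 2 without replicate 2 of Sca-1Hi. With a floor of 40 in place of 20, 13 members rather than 4 had a population at or below it on every array. Centring on the 75th percentile moved the median log2 difference of all genes in UGE to -0.13 against Sca-1Neg, where it was 0.07, to -0.14 against Sca-1Hi and to -0.22 against Sca-1Lo, and the calls over all genes in UGE against Sca-1Neg were 2315 higher and 2733 lower, compared with 2794 and 2207. Quantile normalization gave 22 higher and 9 lower genes in Sca-1Hi against Sca-1Lo, compared with 14 and 3. The causes were not tested.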
